A study of Mus musculus with 5 samples.

Results

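The amino acid response and ATF4 target genes described here are 34 named genes of the 32285 in the deposited matrices. They were picked by symbol, with no measured value in the rule, and all 34 were found. The list was drawn up with earlier results of these data known, so it is not independent of them. When amino acids run short or proteins misfold in the endoplasmic reticulum, kinases phosphorylate the initiation factor eIF2. Most translation then slows while that of the transcription factor Atf4 goes up. ATF4 pairs with C/EBP proteins at composite DNA sites and turns on genes for amino acid uptake, amino acid synthesis, tRNA charging and restraint of growth. Beta cells carry a heavy secretory load of insulin, and this response is best known there as part of the stress that follows it.

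The question was how islet cells differ between mice fed 20% HC (hydrolyzed casein, milk protein broken down to peptides and amino acids) and mice fed standard chow. Islets came from NOD.Cg-Prkdcscid/J (NOD.SCID) mice, a diabetes-prone background in which the scid mutation of Prkdc leaves no mature T or B cells, so both diet groups lack them. There were 2 HC mice, aged 7 (HC 1) and 9 weeks (HC 2), and 3 chow mice, aged 8 (chow 1), 10 (chow 2) and 10 weeks (chow 3). Each mouse gave 1 droplet library (10x Genomics 3′ chemistry) and is 1 replicate. The title of the HC 2 library calls it chow-fed while its diet label says HC. It was kept as HC, in keeping with the 2 HC and 3 chow mice of the series design, and calls of members that change with the title are given under both groupings. Library names begin with FUN (HC 1 and chow 1) or SKY (HC 2, chow 2 and chow 3), and the labels do not say what this prefix marks.

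The HC libraries held 28722244 and 29485548 UMIs (unique molecular identifiers, one per captured RNA molecule), against 29959427, 39624978 and 29796212 in the chow libraries. Of the barcodes, 22758 passed and fell into 19 clusters, 9 of which were named as beta-, alpha-, delta-, macrophage-, endothelial- or stromal-like from marker genes and are called by those types below. Each beta cluster had 5 to 7 beta markers among its 10 leading genes, the alpha cluster had 4 and the delta cluster had 3. There were 10798 beta, 4920 alpha, 2298 delta, 450 macrophage, 825 endothelial and 338 stromal cells. In beta cells the hormone genes took 64.9% and 71.3% of UMIs in HC mice and 65.7%, 72.3% and 71.8% in chow mice, so the FUN libraries were lower under either diet. Values in CPM (UMI counts per 1000000 UMIs of a sum) move with that share. Levels between cell types are therefore given in CPM of non-hormone UMIs, and levels between diets in CPM scaled by TMM (trimmed mean of M values). Counts of 3′ UMIs carry no length term, so no level was divided by gene length.

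The known binding element of ATF4 with C/EBP partners can be read in the promoters of several members, and windows that hold it are shown. Promoter sequences were from RefSeq (GRCm38.p6), 250 bases before to 50 bases after the start site, and 28 members had one. Slc7a3, Aldh1l2, Slc7a5, Eif4ebp1, Wars and Nars had none in the table. The motif searched was TGATGNAAN on both strands. It was present in 9 of the 28 members (32.1%), against 1215 of 27025 genes (4.50%). Members were partly picked as known ATF4 targets, so that share is a description with no test, and a match is not a binding event. Each sequence below runs 5′ to 3′ on the strand of its gene, with the motif or its reverse complement in capitals.

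Nupr1 (chr7:126625563-126625591, minus strand): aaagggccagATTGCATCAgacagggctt

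Trib3 (chr2:152344029-152344057, minus strand): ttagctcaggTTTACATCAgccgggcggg

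Chac1 (chr2:119351038-119351066, plus strand): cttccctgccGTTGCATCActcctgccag

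Asns (chr6:7693214-7693242, minus strand): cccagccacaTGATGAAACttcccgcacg

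Pycr1 (chr11:120643833-120643861, minus strand): gccctgtgtaTGATGCAATgcacaaggct

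Slc7a11 (chr3:50443661-50443689, minus strand): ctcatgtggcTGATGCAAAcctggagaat

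Slc7a11 (chr3:50443643-50443671, minus strand): acctggagaaTTTGCATCAtcatgcagcc

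Gars (chr6:55037960-55037988, plus strand): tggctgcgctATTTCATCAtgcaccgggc

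Vldlr (chr19:27216809-27216837, plus strand): agcagcaataGTTGCATCAgcgctcctag

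In Nupr1 the first base of the motif lies at position -111 from the RefSeq start site, in Vldlr at -201, in Chac1 at -194 and in Asns at -23, the shortest distance before a start site among these. The Trib3 match lies just inside the transcribed part by its RefSeq start site, at 14. These positions depend on the start site chosen. The annotation used for symbols starts Trib3 at 152344032, so there the match lies before the gene. It starts Nupr1 at 126630861, Asns at 7693254 and Vldlr at 27216484, so there these 3 matches lie inside the genes. The full 250 bases before the RefSeq start site of Nupr1 are given because Nupr1 is the member with the widest gap between the diets in beta cells.

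Nupr1 upstream (chr7:126625471-126625720, minus strand): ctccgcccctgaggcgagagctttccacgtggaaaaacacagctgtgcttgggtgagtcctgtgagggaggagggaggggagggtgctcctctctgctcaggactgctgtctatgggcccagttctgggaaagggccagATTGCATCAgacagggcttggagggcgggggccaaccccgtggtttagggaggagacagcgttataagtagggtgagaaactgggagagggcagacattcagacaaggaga

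The 34 members spanned a wide range of levels in beta cells. In beta cells Atf4 itself was the most abundant member by 3′ UMIs, with 362 ± 25.3 CPM of non-hormone UMIs (SD, n = 5 mice of both diets). Atf5, a related factor that is also translated under eIF2 phosphorylation, followed with 302 ± 70.3, and the order of Atf4 and Atf5 was within their spread. The seryl-tRNA synthetase Sars had a mean of 279, the amino acid transporter heavy chain Slc3a2 had 191 and the glycyl-tRNA synthetase Gars had 170 CPM of non-hormone UMIs. Asparagine synthetase (Asns) stood at 118 and Ddit3, the stress factor CHOP, at 112. At the low end, Slc7a11, the cystine transporter, had a level of 0.243 and the cationic amino acid transporter Slc7a3 a level of 0.469 CPM of non-hormone UMIs. Slc7a3 rested on 13 beta-cell UMIs over the 5 mice, 4 and 4 in HC mice against 3, 0 and 2 in chow mice, and was in no test.

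**Figure D1:**
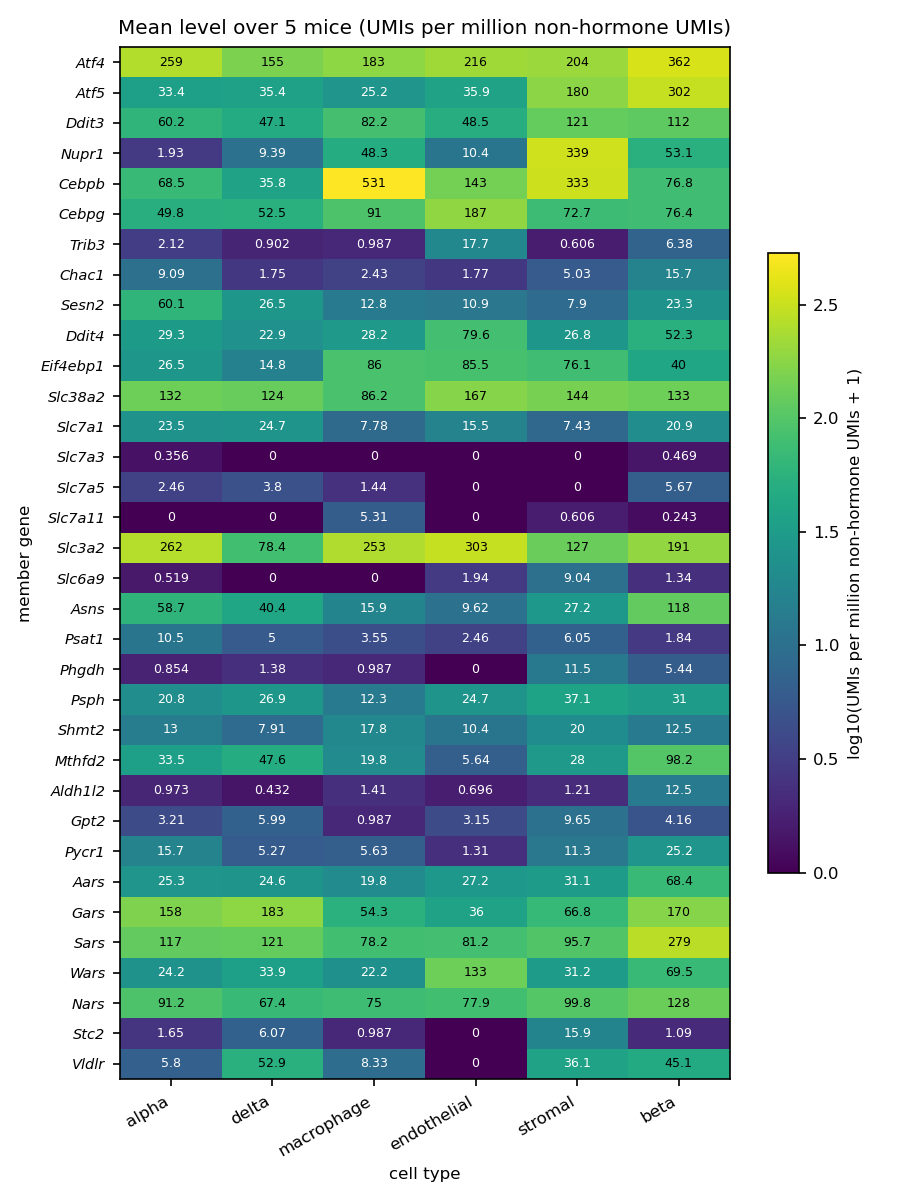
Mean level of each of the 34 members in 6 cell types (columns) over the 5 mice, in CPM of non-hormone UMIs, coloured on a log10(level + 1) scale. Atf5 reads 33.4 in alpha and 302 in beta cells, Cebpb peaks at 531 in macrophages and Nupr1 at 339 in stromal cells.

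Each type was then tested against beta cells of the same mice, with the mouse as a block. In alpha cells 4 of 30 members tested were higher and 20 lower than in beta cells, where 30.9% and 32.1% of all genes were. In delta cells 2 of 31 were higher and 21 lower (27.1% and 28.2% of all genes). In macrophages 4 of 28 were higher and 12 lower (19.6% and 23.3%), in endothelial cells 7 of 27 were higher and 15 lower (29% and 35.8%), and in stromal cells 5 of 29 were higher and 11 lower (18.1% and 17.5%). Atf4, Atf5, Asns, Mthfd2, Aldh1l2, Aars and Sars, 7 members in all, were lower than in beta cells in all 5 types. Aldh1l2 rested on 1 or 2 UMIs in most of these types, and its macrophage and stromal calls were lost with DESeq2 (adjusted p 0.124 and 0.135), with no mouse block (0.0775 and 0.0628) and without chow 1, chow 2, chow 3 or HC 1 (0.0709 to 0.167). With the stricter cell filter its macrophage (0.0574) and endothelial calls (0.0790) and that of Mthfd2 in stromal cells (0.0749) were lost. Clustering was repeated after that filter, so each result given with it also rests on other cells under each name. Beta cells then numbered 7755, and clusters of 2784 and 1302 insulin-rich cells went unnamed. Endothelial cells took in 138 droplets with Ins2 at 48% of the highest cluster. The parts of filter and naming in these results were not tested. The scaling bears on the counts of members higher and lower, because hormone genes fill most of a beta cell's UMIs. Scaled by total UMIs alone, a setting that moved the median of all genes by 0.70 log2 in alpha, 1.22 in delta, 0.62 in macrophage, 1.37 in endothelial and 0.91 in stromal cells, 10, 11, 9, 13 and 16 members were higher in these types and 10, 6, 5, 6 and 1 lower. Of all genes, 75.4%, 88.0%, 40.4%, 67.1% and 51.3% were then higher and 8.26%, 3.61%, 5.77%, 11.7% and 2.96% lower. Of these 7 members, only Asns, Aldh1l2 and Sars stayed below 0 in all 5 types under that scaling. Atf4 turned to 0.35 in alpha, 0.33 in macrophage, 0.95 in endothelial and 0.36 in stromal cells.

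Among the transcription factors, Atf5 differed widely between beta cells and the other endocrine types. It had 52.6 and 33.6 CPM of non-hormone UMIs in alpha cells of HC mice and 27.9, 23.9 and 28.9 in those of chow mice. In beta cells of the same mice it had 416 and 318 (HC) and 273, 232 and 273 (chow). No alpha value came near a beta value, and the difference was -3.05 ± 0.07 log2 (SE, edgeR adjusted p = 1.42e-44). Atf5 was lower by similar amounts in delta cells, at -3.14 ± 0.09 log2, and in macrophages, at -3.12 ± 0.23 log2, and stayed below 0 in these types with total UMIs. In stromal cells it was lower by -0.59 ± 0.17 log2 and turned to 0.44 with total UMIs.

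Nupr1, a small chromatin-associated stress protein, had its highest mean level in stromal cells and its lowest in alpha cells. The level of Nupr1 in stromal cells was 226 and 473 in HC mice and 453, 163 and 382 in chow mice, in CPM of non-hormone UMIs. In alpha cells it was 2.64 and 1.19 in HC mice and 3.37, 1.33 and 1.13 in chow mice, and in beta cells 94.0 and 61.1 in HC mice and 40.8, 30.3 and 39.3 in chow mice. The 3 types did not overlap. The log2 difference from beta cells was 2.97 ± 0.16 in stromal cells (edgeR adjusted p = 1.38e-63) and -4.70 ± 0.18 in alpha cells (edgeR adjusted p = 5.18e-33). With the stricter cell filter the stromal difference was 2.12 and no longer called (edgeR adjusted p = 0.0566). In delta cells Nupr1 rested on 36 and 2 UMIs in HC mice against 2, 0 and 0 in chow mice, so a single library carried it. The delta difference of -2.61 ± 0.65 log2 (edgeR adjusted p = 0.0288) was lost without chow 1, chow 2, chow 3 or HC 2, at adjusted p between 0.0689 and 0.0861.

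Cebpb, a C/EBP partner of ATF4 that is also a myeloid factor, was highest in macrophages. Its level there was 404 and 543 CPM of non-hormone UMIs in HC mice and 258, 642 and 809 in chow mice, against 66.5 and 64.4 (HC) and 92.8, 91.9 and 68.6 (chow) in beta cells. Every macrophage value was above every beta value, by 3.28 ± 0.19 log2 (SE). It was also higher in stromal (2.30 ± 0.16 log2) and endothelial cells (1.04 ± 0.14 log2). Cebpg, a C/EBP member without its own activation domain, was higher in endothelial cells (1.35 ± 0.13 log2) and macrophages (0.72 ± 0.20 log2, but 0.28 and not called with the stricter cell filter). Hormone genes still took 14.4% to 30.7% of UMIs in macrophages and 20.0% to 41.2% in stromal cells, and the part of beta cell RNA in the levels of these droplets was not tested.

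The stress effectors differed in direction across cell types. Ddit3 was lower in alpha (-0.78 ± 0.12 log2), delta (-1.29 ± 0.10 log2) and endothelial cells (-1.20 ± 0.18 log2). With total UMIs it was -0.085 in alpha and -0.063 in delta cells, neither called, and turned to 0.33 in endothelial cells. Trib3, a pseudokinase that feeds back on ATF4, was higher in endothelial cells by 1.51 ± 0.41 log2 (edgeR adjusted p = 0.00045), at 24.8 and 18.7 CPM of non-hormone UMIs in HC mice and 6.96, 10.4 and 27.6 in chow mice. In beta cells it stood at 9.11 and 5.36 (HC) and 7.80, 3.13 and 6.51 (chow), so the levels of the cell types overlapped between mice. The Trib3 call was lost under the stricter cell filter (1.09 log2, edgeR adjusted p = 0.0939). Trib3 was lower in alpha cells (-1.36 ± 0.30 log2). Sesn2, an inhibitor of the growth kinase mTORC1, ran the other way and was higher in alpha cells by 1.51 ± 0.09 log2, with 78.7 and 51.0 in HC mice and 61.1, 55.3 and 54.3 in chow mice. Beta cells had 29.7 and 19.9 (HC) and 29.7, 18.1 and 19.0 CPM of non-hormone UMIs (chow), all below the alpha values. Eif4ebp1, which holds back cap-dependent translation, was higher in macrophages (1.63 ± 0.23 log2), endothelial cells (1.18 ± 0.18 log2) and stromal cells (1.14 ± 0.26 log2), the last lost with the stricter cell filter (0.55 log2, edgeR adjusted p = 0.0846).

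Enzymes and transporters differed between cell types as well. Psat1, the aminotransferase of serine synthesis, was higher in alpha cells by 2.63 ± 0.24 log2. Its level there was 14.5 and 9.88 CPM of non-hormone UMIs in HC mice and 8.66, 7.97 and 11.3 in chow mice, against 2.19 and 2.11 (HC) and 1.49, 1.28 and 2.11 (chow) in beta cells. The 2 types did not overlap. Phgdh, the first enzyme of the same pathway, went the other way in alpha cells (-2.52 ± 0.38 log2), although its level was only 5.44 CPM of non-hormone UMIs in beta cells. Mthfd2 and Aldh1l2, both of mitochondrial one-carbon metabolism, were lower in alpha cells by -1.42 ± 0.09 and -3.40 ± 0.29 log2. The mean level of Aldh1l2 was 0.973 in alpha, 0.432 in delta, 1.41 in macrophage, 0.696 in endothelial and 1.21 in stromal cells, against 12.5 CPM of non-hormone UMIs in beta cells. Outside alpha and beta cells it rested on 1 or 2 UMIs per type.

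Of the transporter and surface genes, Slc3a2 was higher in macrophages (0.91 ± 0.14 log2), endothelial cells (0.78 ± 0.11 log2) and alpha cells (0.58 ± 0.06 log2) and lower in delta cells (-1.32 ± 0.08 log2). Slc7a1, a cationic amino acid transporter, was higher in alpha cells by 0.30 ± 0.12 log2 (edgeR adjusted p = 0.023), a call lost without chow 3 or HC 1 (adjusted p 0.109 and 0.106) and with DESeq2 (adjusted p = 0.206). Vldlr, a lipoprotein receptor, was at 53.4 and 50.7 in delta cells of HC mice and 57.2, 47.4 and 55.6 in those of chow mice, near the 53.2 and 51.1 (HC) and 42.8, 33.9 and 44.4 (chow) of beta cells. The Vldlr difference of 0.19 ± 0.11 log2 in delta cells did not pass the test. Vldlr was lower in alpha cells (-2.80 ± 0.15 log2) and had no UMI in endothelial cells of any mouse, at least 20.7-fold lower than in beta cells when set against a floor of 3 UMIs over the group. Stc2, a secreted glycoprotein, was higher in stromal (4.03 ± 0.68 log2) and delta cells (2.42 ± 0.41 log2). Wars, the tryptophanyl-tRNA synthetase, was higher in endothelial cells (1.01 ± 0.18 log2) and lower in alpha cells (-1.38 ± 0.10 log2), while Aars and Sars, which charge alanine and serine tRNAs, were lower in alpha cells by -1.3 ± 0.10 and -1.12 ± 0.06 log2. The endothelial Wars call was lost with the stricter cell filter (0.68 log2, edgeR adjusted p = 0.154) and with members among the clustering genes (0.88 log2, adjusted p = 0.101). In the latter, endothelial cells took in 140 droplets with Ins2 at 49% of the highest cluster.

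Between the diets, no member passed the threshold in any of the 6 cell types (edgeR quasi-likelihood test, Benjamini-Hochberg adjusted p under 0.05 over all genes). Of all genes tested, 0.00841% were called in beta cells, 0.0652% in alpha cells, 0.0219% in delta cells, 0% in macrophages, 0.0369% in endothelial cells and 0% in stromal cells. The members under an unadjusted p of 0.05 numbered 7 of 30 in beta cells (5.13% of all genes), 4 of 24 in alpha cells (6.67%), 1 of 20 in delta cells (3.51%) and 0 in macrophages (2.99%), endothelial (3.38%) and stromal cells (1.49%). DESeq2 called 1 member, Nupr1 in beta cells. For DESeq2 and the other alternative settings of the diet test below, the share of all genes called is not given. Calls of members under them cannot be read alone. Members not called are given by their values. In beta cells 26 of the 30 members tested lay above 0, with a median log2 HC over chow of 0.19, beside 49.1% of all 11887 genes and a median of -0.00. The 2 HC mice were not alike in this. The median log2 deviation of the members from their mean over the 3 chow mice was 0.36 in HC 1 and 0.08 in HC 2. It was 0.12, -0.16 and 0.03 in chow mice, so chow 1 was above HC 2. The median log2 of the members was 0.074 without HC 1, 0.35 without HC 2, 0.30 without chow 1 and 0.11 without chow 2. With age as a term it was 0.050, with 20 of 30 above 0, and the HC mice are on average younger. With the stricter cell filter it was 0.10, with 20 of 29 above 0, and with the title grouping 0.31. Both HC mice were above all chow mice for 8 members in beta cells (10.4% of all genes were) and below for 1 (10.5% of all genes). The 8 are Atf4, Atf5, Ddit3, Nupr1, Psat1, Aldh1l2, Sars and Vldlr.

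Among the transcription factors in beta cells, Nupr1 had the widest gap. Its level, in TMM-scaled CPM, was 28.7 and 19.0 in HC mice and 12.5, 9.29 and 11.9 in chow mice. Both HC mice were above all 3 chow mice, and HC 1 stood highest. The log2 difference was 1.09 ± 0.19 (SE, edgeR adjusted p = 0.179). It was called under DESeq2 (1.09 log2, adjusted p = 0.000663), with no filter on low counts (1.08 log2, adjusted p = 4.33e-14), with total UMIs as scaling (1.18 log2, adjusted p = 0.000646) and without HC 2 (1.36 log2, adjusted p = 0.000561). Over 18 settings the log2 ran between 0.76 and 1.36 and the adjusted p between 4.33e-14 and 0.734.

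Atf5 had 127 and 99.0 TMM-scaled CPM in HC mice and 83.4, 71.1 and 83.0 in chow mice. The groups did not overlap, and the difference was 0.51 ± 0.12 log2 (edgeR adjusted p = 0.412), called with no filter on low counts (0.50 log2, adjusted p = 0.000842) and not by DESeq2. Ddit3 had 39.6 and 40.2 in HC mice and 34.8, 27.2 and 29.9 in chow mice (0.38 ± 0.11 log2, edgeR adjusted p = 0.781). Here HC 2 was as high as HC 1 and chow 1 was the highest of its group. Ddit3 lies over Mars and Gm4189 on the other strand, and without a stated strand setting reads of these genes cannot be told apart. Atf4 had 123 and 116 in HC mice and 108, 105 and 103 in chow mice, a narrow gap of 0.17 ± 0.09 log2 (edgeR adjusted p = 0.947).

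Cebpb was the member whose HC mice lay below all chow mice in beta cells. It had 20.3 and 20.0 TMM-scaled CPM in HC mice and 28.3, 28.2 and 20.9 in chow mice. The lowest chow mouse, chow 3, was close to the HC mice, and the difference was -0.36 ± 0.14 log2 (edgeR adjusted p = 0.943). The log2 stayed below 0 under all 18 settings run, between -0.49 and -0.27. Cebpg had 26.6 and 20.7 in HC mice and 25.2, 23.0 and 21.5 in chow mice, and the groups overlapped.

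**Figure D2:**
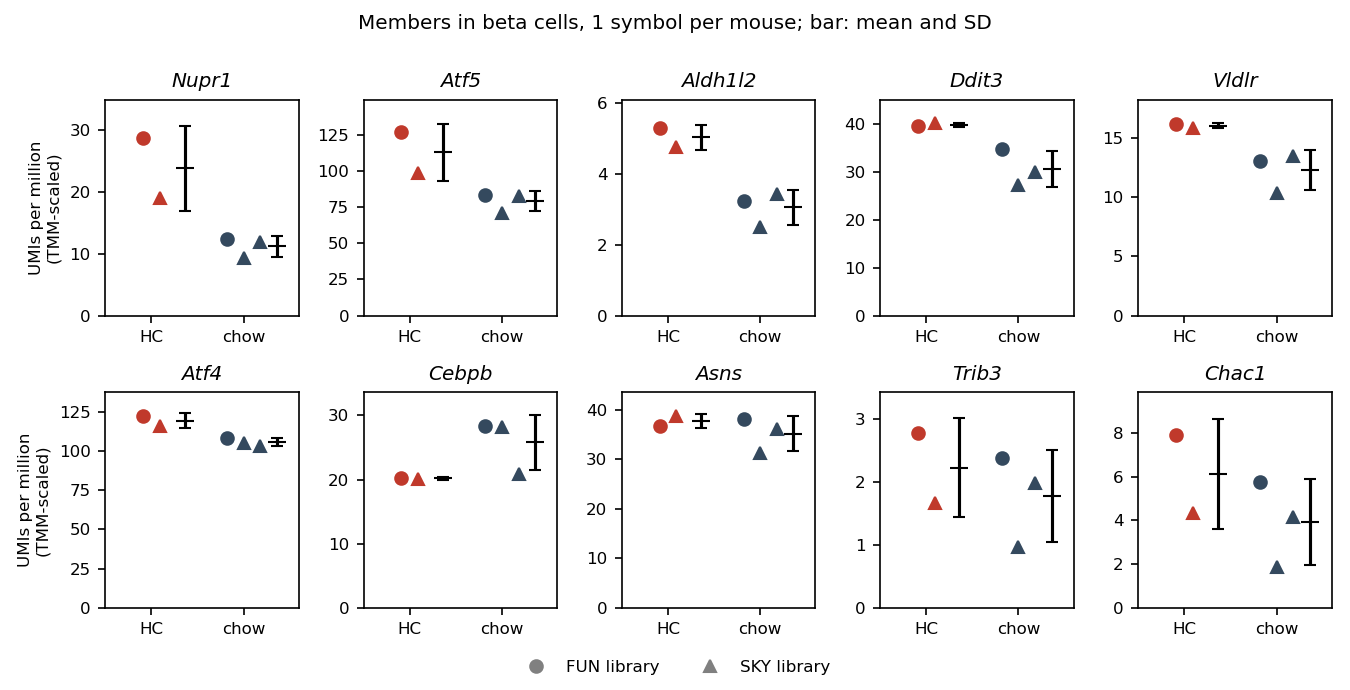
Level of 10 members in beta cells of each mouse (TMM-scaled CPM, linear axes from 0), HC mice left and chow mice right, with circles for FUN and triangles for SKY libraries and bars for the mean and SD of each diet. Nupr1 is at 28.7 and 19.0 in HC mice and at 9.29 to 12.5 in chow mice, while Asns, Trib3 and Chac1 overlap.

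The classical stress effectors overlapped between the diets. Trib3 had 2.78 and 1.67 TMM-scaled CPM in beta cells of HC mice and 2.38, 0.960 and 1.98 in those of chow mice (0.35 ± 0.37 log2). Chac1, which breaks down glutathione, had 7.90 and 4.35 in HC mice and 5.78, 1.88 and 4.18 in chow mice (0.66 ± 0.58 log2). In both genes HC 1 was the highest and chow 2 the lowest of the 5 mice, and chow 1 was above HC 2. Sesn2 had 9.07 and 6.20 in HC mice and 9.08, 5.54 and 5.78 in chow mice. Ddit4, another inhibitor of mTORC1, had 11.6 and 16.9 in HC mice and 19.2, 19.2 and 13.3 in chow mice (-0.28 ± 0.21 log2). Eif4ebp1 had 18.7 and 9.42 in HC mice and 12.4, 9.46 and 11.2 in chow mice, so HC 1 stood highest and HC 2 lowest.

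Of the transporters, Slc38a2, which takes up small neutral amino acids and is a textbook target of amino acid shortage, had 49.1 and 41.1 TMM-scaled CPM in HC mice and 37.5, 32.7 and 43.1 in chow mice (0.26 ± 0.12 log2). Chow 3 was above HC 2. Slc3a2 was level across mice, at 58.5 and 59.0 in HC mice and 60.5, 56.5 and 58.8 in chow mice. Slc7a5, the light chain that pairs with Slc3a2 to carry large neutral amino acids, was low, with 1.5 and 1.91 in HC mice and 1.01, 1.70 and 2.57 in chow mice. Slc7a1 had 8.34 and 5.84 in HC mice and 6.44, 5.28 and 6.05 in chow mice, and the groups overlapped.

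Of the enzymes, Aldh1l2 had 5.28 and 4.77 TMM-scaled CPM in HC mice and 3.24, 2.49 and 3.43 in chow mice. Both HC mice were above all chow mice, and the difference was 0.73 ± 0.19 log2 (edgeR adjusted p = 0.568). Its log2 was above 0 in all 18 settings (0.35 to 0.82) and passed the threshold in none of them. Its partner in mitochondrial one-carbon metabolism, Mthfd2, overlapped, with 36.2 and 27.0 in HC mice and 35.7, 24.9 and 26.6 in chow mice. Asns had 36.7 and 38.8 in HC mice and 38.2, 31.3 and 36.1 in chow mice (0.10 ± 0.11 log2). Psat1 had 0.667 and 0.656 in HC mice and 0.456, 0.393 and 0.643 in chow mice, which did not overlap by a narrow margin at a low level. Phgdh, Psph, Shmt2, Pycr1 of proline synthesis and Gpt2, a mitochondrial alanine aminotransferase, overlapped between the diets.

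Differences in the aminoacyl-tRNA synthetases were small. Aars had 25.8 and 21.5 TMM-scaled CPM in HC mice and 21.7, 16.9 and 19.0 in chow mice (0.30 ± 0.13 log2, edgeR adjusted p = 0.947), and chow 1 was just above HC 2. Sars had 87.9 and 92.3 in HC mice and 86.5, 79.2 and 81.9 in chow mice (0.13 ± 0.09 log2), where both HC mice were above all chow mice by a small margin. Gars, Wars and Nars overlapped. Vldlr had 16.2 and 15.9 in HC mice and 13.1, 10.4 and 13.5 in chow mice (0.39 ± 0.13 log2, edgeR adjusted p = 0.889), with no overlap.

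In alpha cells 20 of 24 members tested lay above 0, with a median log2 HC over chow of 0.26, beside 49.7% of all genes. Without HC 1 the median was 0.015. Both HC mice were above all chow mice for 8 members (11.5% of all genes) and below for 0 (10.9% of all genes). Atf4, Atf5 and Vldlr are in this group in both alpha and beta cells, which come from the same 5 mice. Atf4 had 165 and 161 TMM-scaled CPM in HC mice and 125, 110 and 153 in chow mice (0.33 ± 0.13 log2, edgeR adjusted p = 0.704). Atf5 had 28.2 and 18.3 in HC mice and 15.3, 13.5 and 16.3 in chow mice (0.65 ± 0.20 log2, edgeR adjusted p = 0.641). Atf4 was close in the 2 HC mice, whereas Atf5 was high mainly in HC 1. Slc38a2 had 88.2 and 74.6 in HC mice and 64.9, 64.4 and 72.2 in chow mice (0.28 ± 0.13 log2). Asns had 35.3 and 35.8 in HC mice and 28.8, 28.1 and 33.9 in chow mice (0.24 ± 0.14 log2). In neither did the diets overlap.

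Several alpha-cell members were highest in HC 1, well above HC 2. Aars had 22.2 and 12.1 TMM-scaled CPM in HC mice and 11.4, 10.5 and 13.4 in chow mice (0.57 ± 0.24 log2). Chac1 had 11 and 2.37 in HC mice and 1.85, 1.75 and 7.99 in chow mice, and its log2 of 0.93 ± 1.05 turned to -0.61 without HC 1. Eif4ebp1 had 25.2 and 10.4 in HC mice and 11.4, 9.52 and 16.3 in chow mice. With the HC 2 library grouped by its title as chow, Aars (0.91 log2, edgeR adjusted p = 0.0413), Atf5 (0.83 log2, adjusted p = 0.0488) and Eif4ebp1 (1.11 log2, adjusted p = 0.0200) were called in alpha cells, and HC 1 was then the only HC mouse. Without HC 2, Eif4ebp1 was called at the edge of the threshold (1.04 log2, adjusted p = 0.04998). Ddit3 had 46.3 and 27.2 in HC mice and 33.0, 20.8 and 38.4 in chow mice and overlapped.

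**Figure D3:**
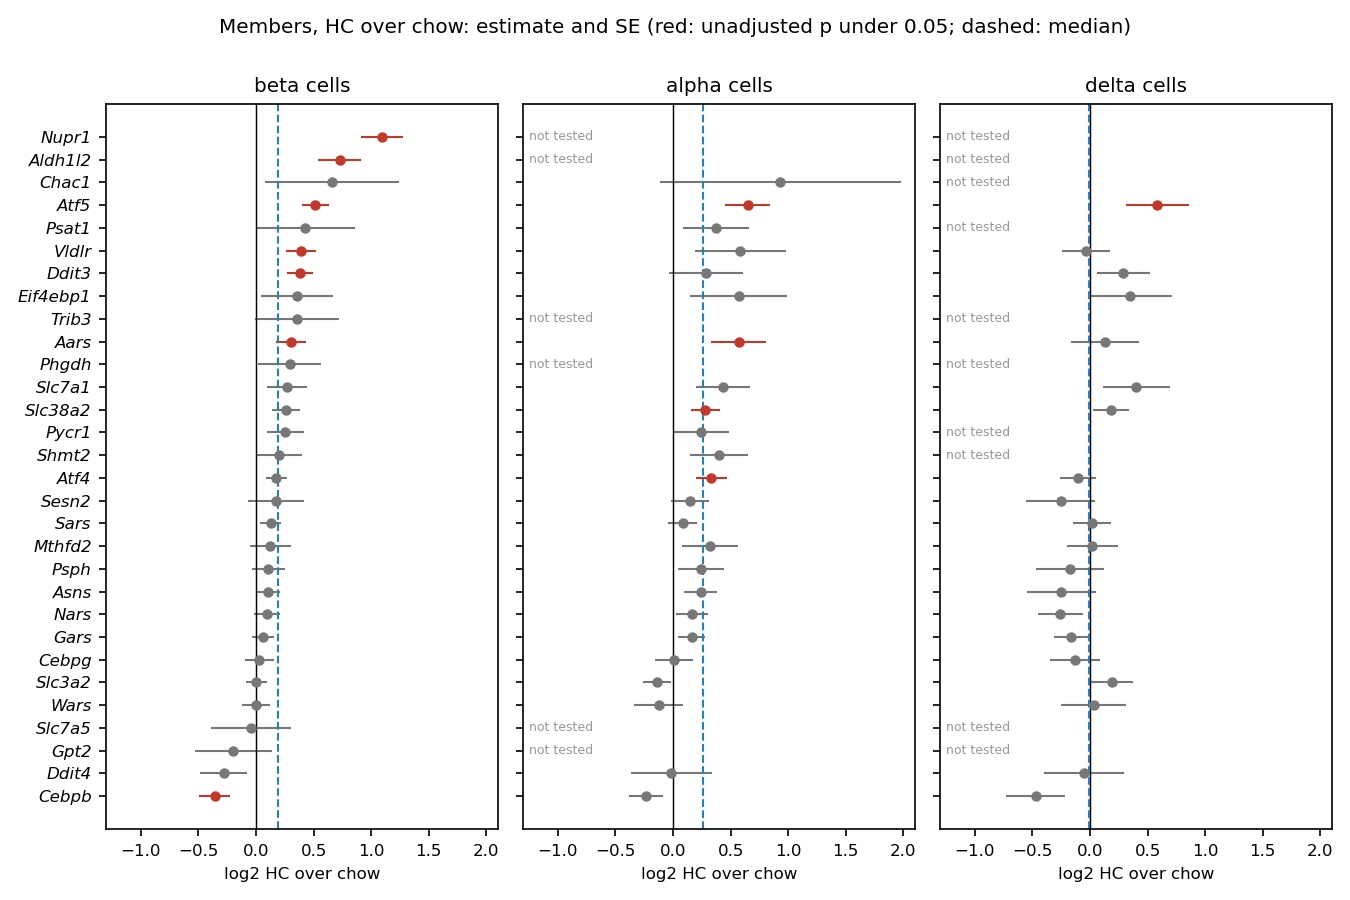
Log2 HC over chow of each member tested in beta, alpha and delta cells, with bars for the standard error, red for an unadjusted p under 0.05 and a dashed line at the median of the members. Most points lie right of 0 in beta (26 of 30) and alpha cells (20 of 24) and are split in delta cells (10 of 20), and none passed the adjusted threshold.

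In delta cells the members were split evenly, with 10 of 20 above 0 (49.4% of all genes) and a median of -0.01. Both HC mice were above all chow mice for 3 members (8.67% of all genes), Eif4ebp1, Slc38a2 and Slc7a1, and below for 1 (8.58% of all genes), Cebpb. Cebpb had 20.1 and 21.3 TMM-scaled CPM in HC mice and 31.9, 27.6 and 26.6 in chow mice (-0.47 ± 0.25 log2). Atf5 had 40.2 and 23.5 in HC mice and 25, 15.1 and 22.1 in chow mice (0.58 ± 0.28 log2), where chow 1 was above HC 2. Nupr1 did not enter the test in delta cells because of its low counts. With the title grouping it was called there (5.05 log2, edgeR adjusted p = 0.000194), as it was without HC 2 (5.51 log2, adjusted p = 9.62e-05), and both rest on the 36 UMIs of HC 1.

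The non-endocrine types gave no direction common to the members. In macrophages 4 of 10 members tested lay above 0 (median -0.17, 50.2% of all genes), in endothelial cells 9 of 14 (median 0.17, 48.8% of all genes) and in stromal cells 7 of 12 (median 0.11, 48.5% of all genes). Slc3a2 was above all chow mice in both HC mice in macrophages, 1 member beside 9% of all genes, with 259 and 249 TMM-scaled CPM in HC mice and 226, 156 and 213 in chow mice. None lay below (8.27% of all genes). In endothelial cells 0 lay above (7.93%) and 1, Sars, below (8.76%), and in stromal cells 1, Nars, lay below (7.7%). The log2 HC over chow of Atf4 was -0.12 in macrophages, 0.24 in endothelial and -0.34 in stromal cells. In endothelial cells Wars had 272 and 103 in HC mice and 78.7, 85.5 and 156 in chow mice (0.93 ± 0.48 log2), and was called by title (1.45 log2, edgeR adjusted p = 0.00353) and without HC 2 (1.5 log2, adjusted p = 0.001). Ddit4 had 28.8 and 229 in HC mice and 39.4, 67.0 and 58.7 in chow mice, and was called there without HC 1 (2.09 log2, adjusted p = 1.65e-06). In stromal cells Cebpb had 365 and 312 in HC mice and 190, 200 and 263 in chow mice (0.60 ± 0.32 log2), and Slc38a2 had 126 and 147 in HC mice and 104, 92.8 and 107 in chow mice, 2 members above beside 6.95% of all genes.

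Since 1 HC mouse carries each prefix, the diets could be set beside each other within FUN (HC 1 and chow 1) and within SKY (HC 2 and chow 2 and 3), with no test inside either. In beta cells Nupr1 was at 1.20 log2 in FUN and 0.85 in SKY, Atf5 at 0.61 and 0.37, Aldh1l2 at 0.69 in both, Vldlr at 0.31 and 0.42, Ddit3 at 0.19 and 0.49, and Cebpb at -0.48 and -0.28. The HC mice of these 6 do not overlap the chow mice, which fixes the shared sign, so the pairs show only the sizes. With the prefix as a term in the model, Nupr1 was called in beta cells (1.01 ± 0.13 log2, edgeR adjusted p = 0.00452). In FUN the HC mouse was 7 and the chow mouse 8 weeks old, and in SKY ages were 9 (HC) against 10 and 10 weeks (chow). Each HC mouse was younger by the same step, so diet and age cannot be told apart within a prefix or in that fit. Among members that overlap, Eif4ebp1 was at 0.59 in FUN and -0.13 in SKY, and Wars at -0.28 and 0.19. In alpha cells Atf4 was at 0.39 in FUN and 0.31 in SKY, whereas Aars was at 0.94 and 0.02 and Chac1 at 2.31 and -0.61.

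The prefix itself went with many members. This comparison was added after the data were seen. With diet in the model, 26 of 30 members tested in beta cells were above 0 in FUN over SKY, with a median of 0.15 log2, beside 50.3% of all genes and a median of 0.00. At an unadjusted p under 0.05 there were 12 (7.61% of all genes). Sesn2 was called higher in FUN (0.63 ± 0.14 log2, edgeR adjusted p = 0.0468), 1 member beside 0.118% of all genes. The call was lost without chow 1, chow 2, HC 1 or HC 2, at adjusted p of 0.387, 0.234, 0.0621 and 0.0641. Mthfd2 was just outside the threshold (0.45 ± 0.10 log2, edgeR adjusted p = 0.0503), and Chac1 (0.92 ± 0.27 log2) and Eif4ebp1 (0.57 ± 0.16 log2) were not called. With total UMIs as scaling, which moved the median of all genes to 0.31, 22 members were called higher beside 26.6% of all genes. Without chow 3 there were 6 beside 0.425% of all genes, namely Atf5, Nupr1, Chac1, Sesn2, Eif4ebp1 and Mthfd2. Median mitochondrial shares of beta cells were 4.08% and 2.56% in HC mice and 3.41%, 2.02% and 2.24% in chow mice, higher in the FUN library than in the SKY libraries under either diet and higher in the HC mouse within each prefix, and their part in the prefix and diet differences was not tested. The FUN mice are also the youngest of each diet, so with diet in the model prefix and age cannot be told apart.

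**Figure D4:**
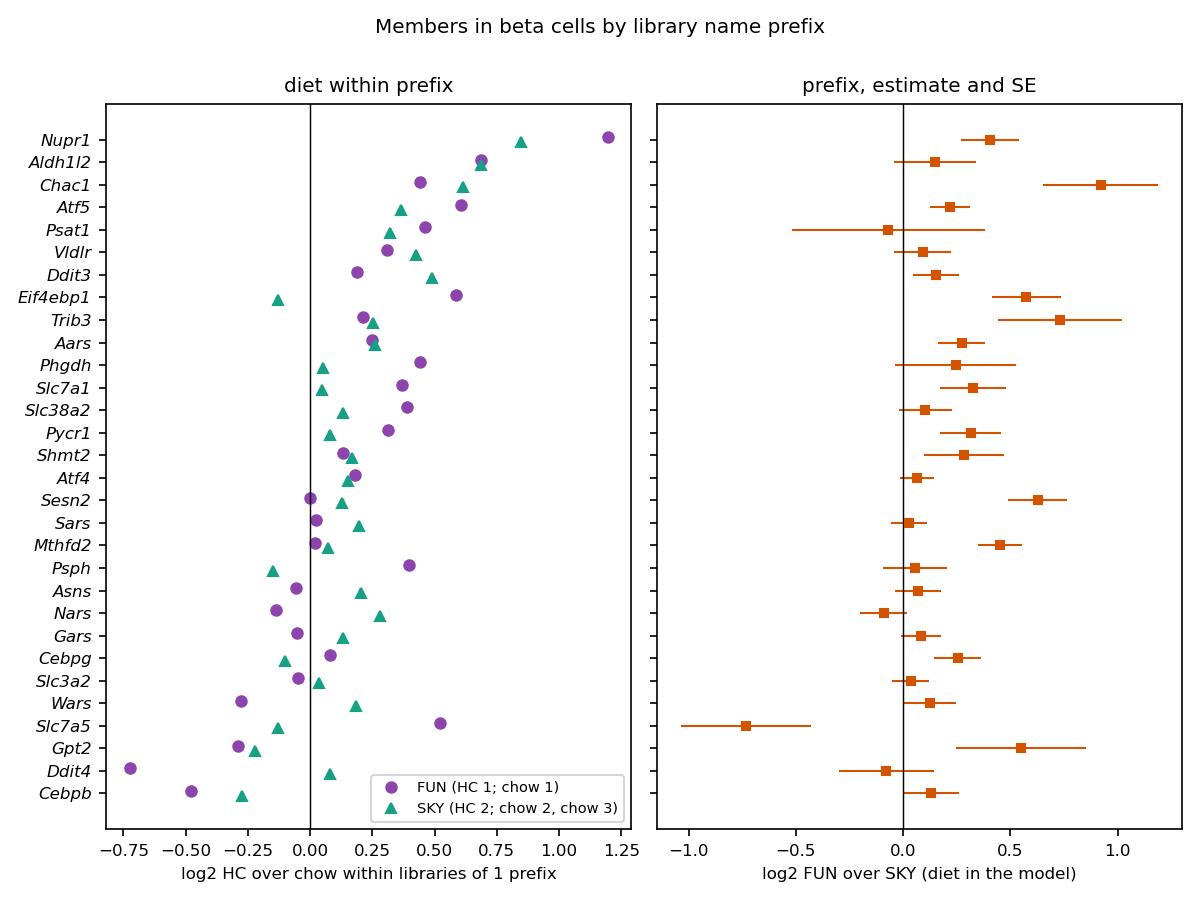
Left, log2 HC over chow of members in beta cells within FUN libraries and within SKY libraries. Right, log2 FUN over SKY in beta cells with diet in the model, with bars for the standard error. Nupr1 is at 1.20 and 0.85 within the prefixes, and 26 of 30 members lie above 0 in FUN over SKY.

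To see how the levels spread over cells, each beta cell was thinned to 2000 UMIs and the share of cells with at least 1 UMI of a member was counted. Nupr1 was found in 5.06% (95% exact interval 4.15 to 6.10) and 2.80% (2.08 to 3.67) of beta cells in HC mice. In chow mice it was found in 2.15% (1.52 to 2.95), 1.59% (1.15 to 2.15) and 1.81% (1.33 to 2.41). The 2 HC mice were above all chow mice, and the interval of HC 2 overlapped that of chow 1. The two-sided exact permutation p was 0.1, the smallest that 2 against 3 mice allow. The difference was 2.08 percentage points, 0.945 without HC 1 and 3.21 without HC 2. The intervals cover counting error only. In alpha cells, thinned alike, the shares of cells with a Nupr1 UMI were 0.249% and 0.0983% in HC mice and 0.273%, 0.231% and 0.130% in chow mice, below every beta value. Without thinning, the Nupr1 shares in beta cells were 13.5% and 10.1% in HC mice and 6.83%, 4.90% and 4.82% in chow mice, at median depths of 6403 and 9611 UMIs (HC) and 8303, 8424 and 7262 UMIs (chow).

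Aldh1l2 was found in 1.17% and 1.12% of beta cells in HC mice and 0.581%, 0.644% and 0.749% in chow mice (exact permutation p = 0.1), but with the stricter cell filter the difference was -0.10 percentage points. Ddit3 was found in 8.86% and 7.94% in HC mice and 8.48%, 5.53% and 5.32% in chow mice (exact permutation p = 0.3). Asns was found in 8.42% and 6.94% in HC mice and 9.06%, 5.72% and 6.46% in chow mice (exact permutation p = 0.7). In both, chow 1 was above HC 2, and shares in the SKY chow mice were the lowest. Trib3 was found in 0.584% and 0.503% in HC mice and 0.407%, 0.152% and 0.394% in chow mice (exact permutation p = 0.1), from a handful of cells per mouse.

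Within each mouse, beta cells with a Ddit3 UMI were set against beta cells without one, at 2000 UMIs per cell. There were 182 and 142 cells with a Ddit3 UMI in HC mice and 146, 146 and 135 in chow mice. Of 12 members abundant enough to compare, 5 were higher in cells with Ddit3 in all 5 mice: Cebpg by 0.74 ± 0.41 log2 (SD, n = 5 mice), Atf5 by 0.67 ± 0.19, Slc3a2 by 0.55 ± 0.15, Sars by 0.39 ± 0.13 and Atf4 by 0.37 ± 0.25. Their two-sided exact sign-flip permutation p was 0.062, the smallest that 5 mice allow, and 0.15 adjusted over the 12. Genes outside the members were not compared. The share of all genes higher in all 5 mice is thus not known, and the count cannot be read as a trait of the members. The counts of mice depended on the setting. At 4000 UMIs Cebpg (0.30 log2) and Slc3a2 (0.17 log2) were higher in 4 of 5 mice. With the stricter cell filter Atf4 (0.19 log2) and Sars (0.16 log2) were higher in 4 of 5, Atf5 was at 0.33 log2 in 5 of 5, and Cebpg was too sparse to compare. Atf5 had 505 and 268 UMIs per 1000 cells with Ddit3 in HC mice and 308, 185 and 304 in chow mice. In cells without Ddit3 the values were 316 and 187 in HC mice and 201, 132 and 156 in chow mice, lower in each mouse. Asns was higher in 4 of 5 mice (0.42 ± 0.51 log2), and Cebpb was higher in only 2 of 5 (-0.11 ± 0.32 log2). Cells with a Ddit3 UMI had a slightly larger share of non-hormone UMIs, by 0.10 log2 on average (0.06 to 0.13 over the mice), and its part in these differences was not tested.

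At 4000 UMIs per cell Nupr1 could be compared too. Beta cells with a Ddit3 UMI had 175 and 161 Nupr1 UMIs per 1000 cells in HC mice and 194, 85 and 130 in chow mice. Cells without it had 124 and 71.2 in HC mice and 47.8, 34.2 and 40.6 in chow mice. The level was higher with Ddit3 in 5 of 5 mice, by 1.35 ± 0.57 log2 (exact permutation p = 0.062, 0.198 adjusted over 19 members), least so in HC 1. Genes outside the members were not compared at this depth either.

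**Figure D5:**
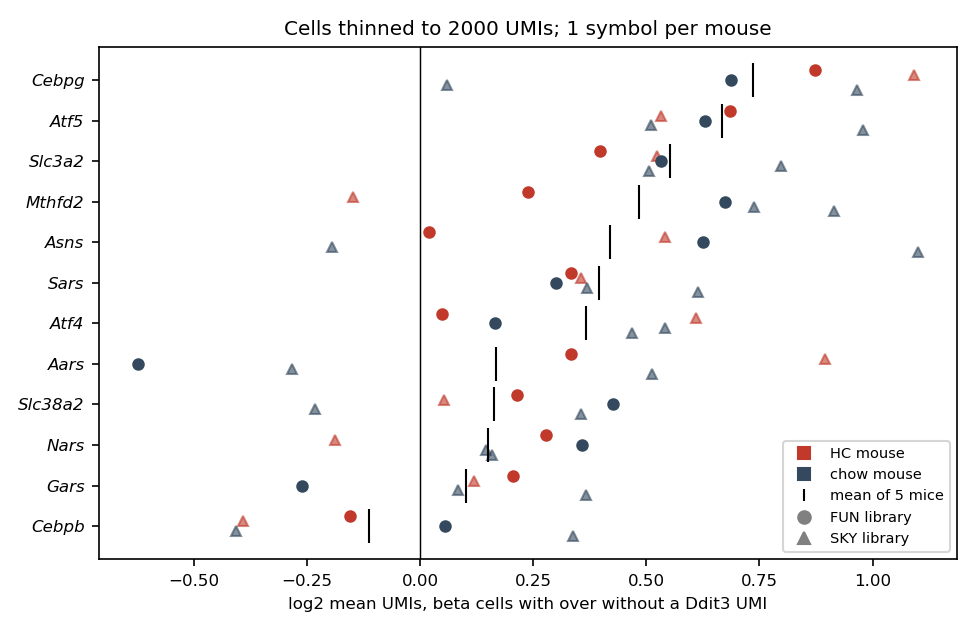
Log2 ratio of the mean UMIs of 12 members in beta cells with a Ddit3 UMI over beta cells without one, 1 point per mouse, at 2000 UMIs per cell. Cebpg, Atf5, Slc3a2, Sars and Atf4 lie above 0 in all 5 mice, and Cebpb in 2. Genes outside the members were not compared.

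Beta cells fell into 4 clusters of 887, 2741, 2719 and 4451 cells, made without the members among the clustering genes. Nupr1 averaged 25.5, 15.8, 18.1 and 15.5 CPM in them, Atf5 averaged 108, 97.0, 115 and 82.9, and Ddit3 averaged 41.3, 36.2, 37.8 and 32.6. The smallest cluster was thus the highest for Nupr1 and Ddit3 by its mean, and Atf5 had its highest mean in another. These orders did not hold in each mouse. In chow 2 Nupr1 was lowest in the smallest cluster, at 5.46 against 8.88, 8.81 and 8.51. Ddit3 there was 46.6 in HC 1 and 37.7 in HC 2, below 53.8 and 38.9 in other clusters of these mice. Atf5 in both HC mice was highest in the smallest cluster (191 and 99.5). No test was made between clusters of the same cells.

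The rest of the pathway was read from lists of other genes. In beta cells 18 of 22 genes of the unfolded protein response tested lay above 0 in HC over chow (median 0.15 log2), as did 13 of 15 other cytosolic tRNA synthetases (median 0.16) and 8 of 10 other amino acid transporters (median 0.11). Other amino acid and one-carbon enzymes had 9 of 13 above 0 (median 0.02), and mTORC1 and amino acid sensing genes had 10 of 14 (median 0.10). A further list held eIF2 kinases, genes of eIF2 and eIF2B subunits, Gcn1, Impact, Ppp1r15a, Ppp1r15b and Atf3. Of these, 6 of 14 tested were above 0 (median -0.02). None of these genes was called, and the median of the members was 0.19. In alpha cells 9 of 21 genes of the unfolded protein response (median -0.06) and 7 of 15 other tRNA synthetases (median -0.06) were above 0, against 9 of 11 other amino acid transporters (median 0.14), where the members stood at 0.26. Genes of the dissociation response are immediate early and heat shock genes switched on while tissue is taken apart. In beta cells 3 of 22 were above 0, with a median of -0.48 log2. Their median was also below 0 in alpha (-0.25), delta (-0.26), macrophage (-0.28), endothelial (-0.27) and stromal cells (-0.24). In delta cells 2 of 21 were called lower (0.0219% of all genes were called). The summed level of the dissociation genes in beta cells was 2283 and 1905 CPM in HC mice and 2996, 2204 and 1984 in chow mice. The part of these genes in the values of the members was not tested.

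Markers of other cell types were also read in the beta cells. Delta markers summed to 1876 and 1354 CPM in HC mice and 1895, 1591 and 1638 in chow mice, alpha markers to 1388 and 1074 in HC mice and 1259, 1173 and 982 in chow mice, and ductal markers to 252 and 208 in HC mice and 249, 204 and 213 in chow mice. Markers of PP cells summed to 55.0 and 495 in HC mice and 44.4, 451 and 1191 in chow mice, lower in the FUN library under either diet. Markers of acinar cells summed to 95.7 and 56.0 CPM in HC mice and 183, 33.9 and 22.9 in chow mice, and those of macrophages to 14.0 and 16.9 in HC mice and 20.9, 8.01 and 15 in chow mice. Stromal markers, of the named type with the highest Nupr1 level, summed to 2.62 and 1.65 in HC mice and 1.37, 2.21 and 2.18 in chow mice, where 3 of 10 were detected in every mouse. Nupr1 was not read in droplets outside the named types. The part of these markers in the values of the members was not tested. In sums per mouse, fewer stressed cells and less RNA per cell cannot be told apart.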

How the data were processed

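Reads had been counted with Cell Ranger 4.0.0 on mm10, per the submitters' processing notes. The release of the gene models and the strand setting are not given in the sources used here. The values the authors deposited are raw UMI counts per gene and barcode, not normalized. Symbols came from a GRCm38 annotation (32235 of 32285 IDs). Barcodes with at least 1000 UMIs, at least 500 genes and at most 15% mitochondrial UMIs were kept and clustered with scanpy 1.11.5 and igraph 0.11.9 (2000 variable genes without the members, 30 components, 15 neighbours, resolution 1). A cluster was named from at least 3 markers among its 10 leading genes. Doublets were neither called nor removed. An alternative left out 1217 droplets of mixed hormones. Counts were summed per mouse and type, with at least 20 cells in each mouse.

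Tests used edgeR 4.0.16 in R 4.3.3 (TMM, filterByExpr, robust quasi-likelihood, two-sided, adjusted over all genes tested, threshold 0.05), with DESeq2 1.42.0 as an alternative. Exact permutation tests enumerated every split or sign flip in Python 3.11.15. In cell type over beta cells the mouse was the block, since both sums come from the same mouse. The fits were tested on simulated data. Motifs came from RefSeq promoters. Some promoter windows are not reported here. A stated interval is an exact 95% Clopper-Pearson one from scipy 1.17.1.

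Members and lists were chosen with earlier results of these data known. The text names members past the threshold, those of smallest p (6 in beta, 4 in alpha and delta, 2 in other types), the 5 largest differences per direction between types, and Atf4, Ddit3, Trib3, Asns, Nupr1, Chac1 and Slc7a3; other members are named for completeness, after their values were seen.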

Additional observations from a re-analysis of the deposited data

Results flagged for a closer look

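Cebpb lay on opposite sides between the diets in stromal cells and in beta and delta cells. Both HC mice were above all chow mice in stromal cells (log2 HC over chow 0.60) and below all of them in beta cells (-0.36) and in delta cells (-0.47). The difference was not tested. Sars was above all chow mice in both HC mice in beta cells (0.13) and below all of them in endothelial cells (-0.26), and the difference was not tested.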

How the results depend on the processing

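No paired analysis was possible because replicate numbers of the diet groups follow accession order and pair no mice across the diets. The library prefix as a term is another kind of block and is among the settings. For cell type over beta cells the mouse was the block. With no replicate block 3, 2, 5, 7 and 4 members were higher in alpha, delta, macrophage, endothelial and stromal cells. In the same order 19, 21, 10, 13 and 9 were lower. With the block, 18.1% to 30.9% of all genes were higher and 17.5% to 35.8% lower. The share without it is not given here. Other counts of members in this section that stand without a share of all genes cannot be read alone either. Leaving out 1 mouse, between 0 and 1 members were called for diet in beta, alpha, delta and endothelial cells and 0 to 6 for FUN over SKY in beta cells. Medians of the members then ran from 0.074 to 0.35 in beta, 0.015 to 0.40 in alpha, -0.047 to 0.16 in delta, -0.18 to -0.032 in macrophage, -0.034 to 0.22 in endothelial and -0.15 to 0.35 in stromal cells. The Nupr1 share difference ran from 0.945 to 3.21 points.

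For diet in beta cells DESeq2, the prefix term and total UMIs each called 1 member and no low count filter called 2. By title 3 members were called in alpha, 1 in delta and 1 in endothelial cells. The median in delta cells was 0.19 by title, -0.10 without mixed-hormone droplets and -0.13 with the stricter cell filter. In macrophages it was -0.052 with age, 0.043 at resolution 0.5, -0.085 with prefix, -0.032 with total UMIs and -0.046 with the stricter filter. It was -0.045 by title in endothelial cells. In stromal cells it was 0.38 with equal cells and changed sign by title (-0.092) and without chow 2 (-0.11).

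Single members also turned round. Over the fits without 1 mouse, diet values ran from -0.065 to 0.67 for Trib3 in beta cells, -0.16 to 0.61 for Ddit3 and -0.61 to 1.94 for Chac1 in alpha cells, and -0.23 to 0.0089 for Atf4 and -1.05 to 0.30 for Asns in delta cells. They ran from -0.25 to 0.086 for Atf4 in macrophages, -0.091 to 0.53 for Ddit3 in endothelial cells, and -0.35 to 0.27 for Ddit3 and -0.61 to 0.60 for Nupr1 in stromal cells. With age, Trib3 was -0.15 in beta and Ddit3 -0.051 in alpha cells. With the stricter filter, Asns was -0.025 in beta, Cebpg 0.18 in endothelial, and Atf4 0.022 and Ddit3 0.75 in stromal cells. By title, Asns was 0.52 in delta, Ddit3 -0.14 in endothelial and Nupr1 -0.80 in stromal cells. In macrophages Atf4 was 0.027 with total UMIs and Ddit3 0.027 at resolution 0.5.

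Against beta cells, total UMIs gave 10, 11, 9, 13 and 16 members higher and 10, 6, 5, 6 and 1 lower in alpha, delta, macrophage, endothelial and stromal cells. Atf4 then stood at 0.35, 0.33, 0.95 and 0.36 in alpha, macrophage, endothelial and stromal cells and Ddit3 at 0.33 in endothelial cells. Hormone genes taken out, and the stricter filter, each left 1 member higher in delta cells; the filter left 4 higher in endothelial cells, and DESeq2 gave 7 lower in stromal cells. In macrophages Ddit3 was -0.21 at resolution 0.5, -0.16 without mixed-hormone droplets, -0.075 with no low count filter and -0.60 with the stricter filter, and ran from -0.12 to 0.20 without 1 mouse. Nupr1 there was -0.052 at resolution 0.5 and -0.29 with the stricter filter, and ran from -0.21 to 0.74 without 1 mouse. Ddit3 was -0.49 in stromal cells with the stricter filter. FUN over SKY in beta cells called 4 members higher with no low count filter (0.305% of all genes) and 22 with total UMIs (26.6% of all genes).

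At 4000 UMIs the share differences were 4.04 points for Nupr1, 3.85 for Ddit3, 0.384 for Trib3 and 0.928 for Aldh1l2; with the stricter filter they were 0.019 for Trib3 and -0.0965 for Aldh1l2. The cause of these changes was not tested. Splitting by Trib3 in place of Ddit3 gave no value, with 4 to 12 Trib3 cells per mouse. Of the tested values of single members, 1488 kept direction and side of the threshold, 36 reversed, 74 lost a call and 19 gained one. Of the summary values, 46 moved and 12 gained a call. With 2 HC mice, 1 of them under a conflicting title, and most members below 1 UMI per cell, moderate differences cannot be resolved.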
